A study of Mus musculus and Homo sapiens with 10 samples.

Results

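Narrow lamina-associated domains found by both DamID readouts in N2A cells, a mouse neuroblastoma line, were described by the genes they hold, the distance to the next domain and the gene density around them. A lamina-associated domain (LAD) is a stretch of chromatin that lies at the nuclear lamina, the protein mesh under the nuclear envelope. Members were chosen by 2 measured values: a width under 500 kb in the Nanopore list, and at least 50% of bases covered by LADs of the Illumina list. On chromosomes 1 to 19 and X, 247 of 1174 Nanopore LADs met this rule (21.0%), and they made up 67.56 of 1480.1 Mb of Nanopore LAD sequence (4.56%). All positions are in mm10.

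LADs are in general poor in genes and rich in silent chromatin, and most LAD sequence of a mammalian genome lies in long blocks. Lamin B1 is a filament protein of the lamina and is farnesylated, which holds it at the inner nuclear membrane. In DamID, the bacterial methyltransferase Dam is fused to such a protein and methylates adenine in GATC motifs nearby, so DNA cut at methylated GATC marks contact with the lamina in living cells. Gene clusters used in other tissues, such as odorant receptor clusters in neural cells, are well known residents of LADs.

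The N2A samples that bear on the 2 lists by their labels were cells with LaminB1-Dam or with Dam alone, read by Nanopore (1 sample each) or by Illumina (2 samples with LaminB1-Dam and 1 with Dam). Expression was induced with doxycycline at 2 µg/mL. Further samples were labelled 10% LaminB1-Dam and wild type, and the sources used here do not say which samples entered each list, what promoter drove the transgenes or how many clones were used. Each list holds interval positions alone, without a value per sample, so depth was unknown, no spread between replicates could be computed, and the cell line could not be checked against marker genes. No test between samples was therefore possible. Spreads below are over chromosomes, which are not biological replicates, and 95% Wilson intervals cover counting error only.

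Promoter sequences are shown first, because genes that start in these LADs ranged from promoters with no CG dinucleotide (CpG), the main site of cytosine methylation in mouse DNA, to CpG-rich ones. The CpG ratio is the observed number of CG divided by the number that the C and G content would give. From 63 genes with a start site in a narrow shared LAD that were named by rule (for the gene content, isolation or length of gene, or from the gene lists), the 4 lowest and the 4 highest ratios of that set are printed, 250 bases before to 50 after the start site, from RefSeq (GRCm38.p6, the assembly behind mm10), with each CG in capitals. The 4 lowest belonged to Efcab13, an EF-hand calcium-binding gene, the olfactory receptor genes Olfr1328 and Olfr1426, and Cyp2d9, a cytochrome P450 gene.
Efcab13, chr11:104690584-104690883, plus strand: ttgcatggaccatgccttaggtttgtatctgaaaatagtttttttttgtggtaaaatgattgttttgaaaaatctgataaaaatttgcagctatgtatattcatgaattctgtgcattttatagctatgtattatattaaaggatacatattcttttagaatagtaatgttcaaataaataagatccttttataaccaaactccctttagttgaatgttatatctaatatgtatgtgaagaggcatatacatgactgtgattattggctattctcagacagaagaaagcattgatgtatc
Olfr1328, chr4:118934791-118935090, minus strand: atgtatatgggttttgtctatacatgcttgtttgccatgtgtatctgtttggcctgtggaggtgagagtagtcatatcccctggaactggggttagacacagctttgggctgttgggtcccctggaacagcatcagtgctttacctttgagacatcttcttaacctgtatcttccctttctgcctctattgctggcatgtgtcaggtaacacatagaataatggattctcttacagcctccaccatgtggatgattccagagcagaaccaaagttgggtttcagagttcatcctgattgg
Olfr1426, chr19:12091798-12092097, minus strand: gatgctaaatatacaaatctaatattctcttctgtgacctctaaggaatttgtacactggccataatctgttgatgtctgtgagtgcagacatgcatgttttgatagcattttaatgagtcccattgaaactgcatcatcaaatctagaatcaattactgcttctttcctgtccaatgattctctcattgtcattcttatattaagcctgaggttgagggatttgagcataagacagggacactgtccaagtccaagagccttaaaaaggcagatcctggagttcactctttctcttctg
Cyp2d9, chr15:82452127-82452426, plus strand: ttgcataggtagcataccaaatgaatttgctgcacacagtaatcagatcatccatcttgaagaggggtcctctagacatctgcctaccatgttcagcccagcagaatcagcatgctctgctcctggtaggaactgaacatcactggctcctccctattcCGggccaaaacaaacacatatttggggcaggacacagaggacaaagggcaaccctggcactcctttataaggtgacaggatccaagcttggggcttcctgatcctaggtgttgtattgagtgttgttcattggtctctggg

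The first 3 of these sequences hold no CG and the Cyp2d9 promoter holds 1 (ratio 0.056). The 4 highest ratios of the 63 belonged to Zfp536, a zinc finger gene, Kcnd3, which encodes a potassium channel subunit, Serpine2, a protease inhibitor gene, and Dock3, which encodes a Rac activator of neurons.
Zfp536, chr7:37769703-37770002, minus strand: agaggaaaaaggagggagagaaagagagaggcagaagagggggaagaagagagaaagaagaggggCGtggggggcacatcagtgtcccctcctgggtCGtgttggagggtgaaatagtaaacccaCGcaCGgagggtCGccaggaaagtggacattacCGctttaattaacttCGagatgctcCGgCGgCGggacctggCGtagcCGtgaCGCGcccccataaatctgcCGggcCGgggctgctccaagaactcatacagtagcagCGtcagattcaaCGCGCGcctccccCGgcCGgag
Kcnd3, chr3:105451640-105451939, plus strand: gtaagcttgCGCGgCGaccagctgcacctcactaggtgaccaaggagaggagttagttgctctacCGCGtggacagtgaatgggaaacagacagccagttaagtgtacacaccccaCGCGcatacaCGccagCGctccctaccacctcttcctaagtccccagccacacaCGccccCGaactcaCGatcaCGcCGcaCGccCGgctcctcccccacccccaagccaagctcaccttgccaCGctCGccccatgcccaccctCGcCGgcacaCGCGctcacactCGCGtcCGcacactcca
Serpine2, chr1:79858616-79858915, minus strand: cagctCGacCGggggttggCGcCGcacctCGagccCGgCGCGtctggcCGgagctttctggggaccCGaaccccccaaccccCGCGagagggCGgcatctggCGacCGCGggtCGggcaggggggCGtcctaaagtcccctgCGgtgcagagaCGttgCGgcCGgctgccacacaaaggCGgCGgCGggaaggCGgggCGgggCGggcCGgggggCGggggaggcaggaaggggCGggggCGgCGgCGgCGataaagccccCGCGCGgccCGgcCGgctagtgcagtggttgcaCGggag
Dock3, chr9:107231860-107232159, minus strand: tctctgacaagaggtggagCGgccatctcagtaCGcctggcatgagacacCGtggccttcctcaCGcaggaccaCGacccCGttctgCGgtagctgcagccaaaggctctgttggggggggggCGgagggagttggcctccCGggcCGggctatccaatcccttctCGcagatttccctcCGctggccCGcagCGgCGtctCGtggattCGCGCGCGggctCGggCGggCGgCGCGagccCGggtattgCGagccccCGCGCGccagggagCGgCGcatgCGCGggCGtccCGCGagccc

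These held 22, 25, 41 and 37 CG, at ratios of 0.857, 0.923, 0.938 and 0.962 in the order printed. Genes in narrow shared LADs but outside that set reached higher ratios, such as Zfp827 at 1.195 and Mark1 at 1.178. Each of the 4 printed genes with the highest ratios was the only protein-coding gene of its LAD. The LADs of Efcab13, Cyp2d9, Olfr1328 and Olfr1426 held 3, 4, 14 and 15. The 63 were named partly by gene content and gene length, so this contrast cannot be read as a trait of members. CpG-rich promoters were also found in a LAD of 7 genes, such as Prr23a1 at 0.920 and Foxl2 at 0.708. Start sites of the printed genes lay 8.09 kb (Dock3) to 168 kb (Kcnd3) inside the nearer Nanopore border. For Dock3, Efcab13 and Cyp2d9 this was less than the 20 kb step of the borders, and these 3 start sites were outside the Illumina LAD, whereas the other 5 were in LADs of both lists. The motif read by DamID, GATC, occurred 3 times in the Cyp2d9 promoter, once each in Efcab13, Olfr1426 and Kcnd3, and not in the other 4.

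Over all protein-coding genes in the promoter table, 394 had their start site in a narrow shared LAD. The median CpG ratio was 0.244 (quartiles 0.119 and 0.463) there, against 0.703 (0.378 and 0.879) for 12315 start sites outside Nanopore LADs. A ratio of 0.6 or more was found in 67 of the 394 (17.0%, 95% Wilson interval 13.6 to 21.0%) and in 60.7% outside (59.9 to 61.6%). The classes of LAD were close to each other: 18.5% (17.0 to 20.2%) in mid-size shared LADs of 500 kb to 2 Mb, 20% (18.3 to 21.8%) in LADs of 2 Mb or more, and 21.2% (16.1 to 27.5%) in narrow LADs that failed the Illumina rule. Without olfactory and vomeronasal receptor genes the share was 21.6% of 306 in narrow shared LADs (17.3 to 26.5%) and 27.9% in LADs of 2 Mb or more (25.6 to 30.2%). At least 1 GATC was present in 51.3% of the 394 promoters (46.3 to 56.2%), in 49.5% of those in LADs of 2 Mb or more and in 44.8% outside LADs. The table used held 406 of the 498 genes inside members on chromosomes other than 18 (81.5%), and chromosome 18 was not used for start sites.

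**Figure D1:**
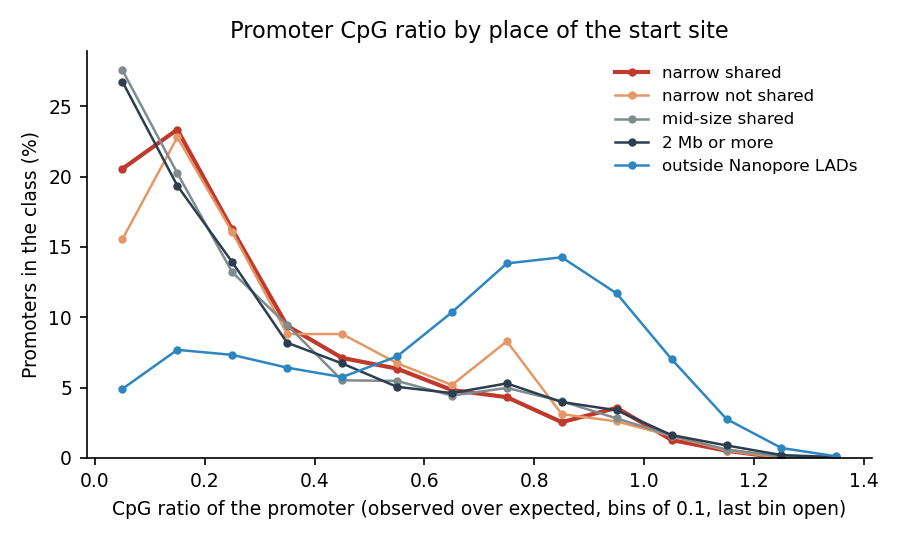
Share of promoters (%) in each bin of CpG ratio, by the place of the start site. Lines stand for 4 classes of Nanopore LAD and for sequence outside them; the 4 LAD lines peak below 0.2, and the line for start sites outside, with a median of 0.703, peaks between 0.8 and 0.9.

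Widths and Illumina cover chose the members and are given as a description. Members were 40 to 480 kb wide, with a median of 260 kb and quartiles of 180 and 360 kb, and all borders lay on a 20 kb grid. By width, 12 were under 100 kb, 64 were from 100 to under 200 kb, 67 from 200 to under 300 kb, and 104 were 300 kb or more. At the limit, 11 members were 480 kb wide and 12 shared LADs of 500 kb fell just outside. The lowest cover inside the rule was 50% (4 LADs), and the highest outside was 47.8% (1 LAD). Cover was 100% in 103 members and its median was 92.3%. Of the 215 other Nanopore LADs under 500 kb, 182 had no Illumina LAD base at all.

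Each of the 247 members met exactly 1 Illumina LAD. Of 494 member borders, 202 (40.9%) were at the same grid position as the border of that Illumina LAD and 354 (71.7%) were within 20 kb. The Nanopore LAD reached farther at 189 borders and the Illumina LAD at 103. Both borders were identical in 45 members, among them the LAD of the carboxylesterase genes on chromosome 8 (104660001 to 105060000), that of 6 Cd209 genes, which encode C-type lectins of the DC-SIGN family (chromosome 8, 3720001 to 4120000), and that of Adh1, Adh7, Adh6a and Adh6b, alcohol dehydrogenase genes (chromosome 3, 138200001 to 138420000). In 16 members the Illumina LAD was itself 500 kb or wider. The most extreme was an 80 kb member on chromosome 12 (20960001 to 21040000) at the end of an Illumina LAD of 3220 kb. A pair of members on chromosome 7, of 440 and 80 kb and 60 kb apart, lay in a single Illumina LAD of 800 kb. The wider of them was in the axon growth gene Nav2.

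Narrow shared LADs held 510 protein-coding genes by gene midpoint, 2.37% of the 21519 placed. The midpoint of 459 of these genes (90.0%) was also in an Illumina LAD. The rule itself asked for Illumina cover, and 60.12 of the 67.56 Mb of members lay in Illumina LADs. This share of genes is therefore no separate support from the Illumina list. A single gene was the most frequent content, in 93 members (37.7%). Of the others, 43 held 2, 19 held 3, and 52 (21.1%, 95% Wilson interval 16.4 to 26.6%) held none. The share with no gene was 41.4% (35.0 to 48.1%) in narrow LADs that failed the Illumina rule. It was 8.09% in mid-size shared LADs and 1.90% in LADs of 2 Mb or more. In the same order, 31.2, 21.3 and 6.16% held 1 gene. Median widths were 160, 1000 and 3260 kb in these classes and 260 kb in members, so widths were not matched. Only 7 members held 10 or more. The 10 members with most genes held 129 of the 510 genes (25.3%) in 3.52 Mb.

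**Figure D2:**
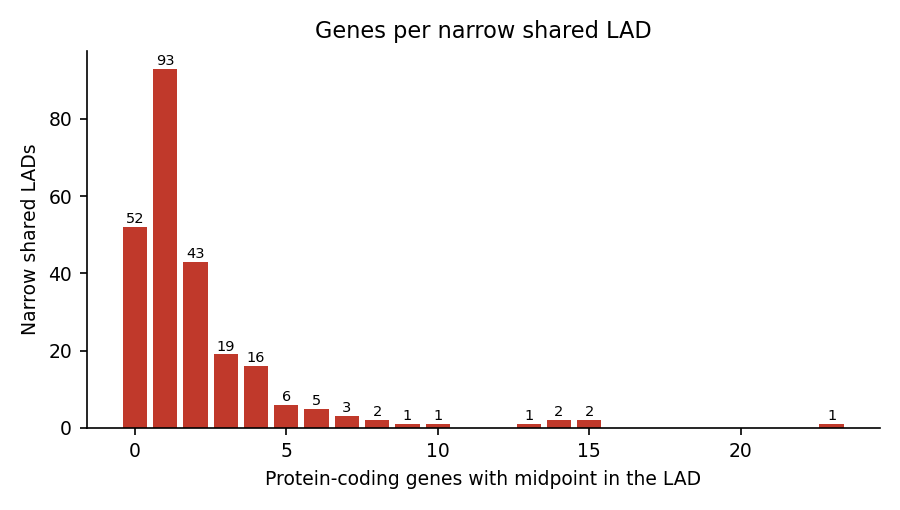
Number of narrow shared LADs (vertical axis) by the number of protein-coding genes with their midpoint inside (horizontal axis). The tallest bar is 93 LADs with 1 gene, 52 LADs hold none, and 1 LAD holds 23.

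The gene-rich end consisted largely of tandem families. The member with most genes, 400 kb of chromosome 11 (58380001 to 58780000), held 23, among them Trim58, a ubiquitin ligase gene of red cell maturation, Lypd8, which encodes an anti-bacterial protein of the colon, and Olfr316. Its nearer neighbour LAD was 980 kb away. Other olfactory receptor clusters filled 340 kb of the same chromosome (49280001 to 49620000, 15 genes, the longest named ones Olfr1386, Olfr1389 and Olfr1384), 400 kb of chromosome 19 (12020001 to 12420000, 15 genes, with Olfr1428, Olfr1426 and Olfr1434) and 340 kb of chromosome 4 (118640001 to 118980000, 14 genes, with Olfr1342, Olfr1338 and Lao1, an amino acid oxidase gene). In these 4 LADs the density was 57.5, 44.1, 37.5 and 41.2 genes per Mb, above that of the 1 Mb on each side (25.5, 18.5, 32.0 and 20.5 per Mb).

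Immune and metabolic families made up further gene-rich members. On chromosome 11 (114760001 to 115060000), 14 genes included 10 of the Cd300 family, which encode paired receptors of myeloid cells, with the kinesin gene Kif19a as the longest. Beside the second olfactory cluster, 300 kb of chromosome 11 (48880001 to 49180000) held 13 genes, with the interferon-induced GTPase genes Ifi47 and Tgtp2 and the butyrophilin-like gene Btnl9. Of these 13, 4 were olfactory receptor genes. The 8 genes on chromosome 8 (104660001 to 105060000) were all carboxylesterases, enzymes of drug and lipid hydrolysis, with Ces2h, Ces2f and Ces3a the longest. This LAD stood out from its gene-dense surroundings, at 20 genes per Mb inside and 33.0 per Mb in the flanks. On chromosome 4 (101680001 to 102000000), Lepr, the leptin receptor gene, shared a LAD of 8 genes with Pramel17 and Pramel18 in flanks of 4.5 genes per Mb, a LAD denser than its surroundings. The remaining members among the 10 were 440 kb of chromosome 7 and 280 kb of chromosome 15 (98200001 to 98480000). The first held 10 genes, including Usp29, Peg3 and Zim1. The second held 9, including Olfr287, Zfp641 and Olfr286, and 7 of the 9 were olfactory receptor genes. Illumina cover of this second LAD was at the limit of 50%, and the midpoints of Olfr287 and Olfr286 were outside the Illumina LAD.

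At the other end were members that matched the body of 1 long gene. In 60 members (24.3%) a single protein-coding gene covered at least 50% of the LAD, and in 27 at least 80%. The 10 longest named genes with their midpoint inside were Macrod2, Dlgap2, Nav2, Rgs6, Pakap, Zfp536, Cacna1d, Kif26b, Myo3b and Tmem178b, from 384 to 1998 kb. These genes included scaffold, channel and motor proteins: Dlgap2 encodes a postsynaptic scaffold, Rgs6 a regulator of G protein signalling, Cacna1d an L-type calcium channel and Myo3b an unconventional myosin. Their fit to the LAD ranged widely. Macrod2 (chromosome 2, 140395303 to 142392966) had 4.0% of its length in an 80 kb LAD, and Kif26b (chromosome 1, 178529125 to 178932857) had 97.3% of its length in a LAD of 480 kb.

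For 28 genes, at least 70% of the gene lay in the LAD and at least 70% of the LAD in the gene; this limit was set after the values were seen. The closest fit was Stk33, a kinase gene of 160.0 kb (chromosome 7, 109279213 to 109439168), in a LAD of 160 kb, with 99.5% of each inside the other. Lekr1 on chromosome 3 followed with 99.7% of the gene and 98.1% of the LAD, then Stk32b on chromosome 5 (95.1 and 98.9%) and Pde11a, a phosphodiesterase gene on chromosome 2 (96.0 and 94.2%). Adamts12, a secreted protease gene, Bmpr1b, a BMP receptor gene, and Gli2, a transcription factor of Hedgehog signalling, were also in this set. All these fits are to Nanopore borders. The Illumina LADs were 120 kb wide at Stk33, 140 kb at Lekr1, 340 kb at Stk32b and 180 kb at Pde11a, so the close fits were not shared by both lists. Where a start site was known (20 of the 28 genes), it lay inside the Nanopore LAD in 12 and outside in 8. Examples outside were Gli2 and Cemip, whose Nanopore LADs began within the transcribed body. The whole of Gli2 was, however, in its Illumina LAD (chromosome 1, 118620001 to 119060000). Cemip reached past the border at 84080000 only to 84086693, less than the 20 kb step of the borders.

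In all, 558 genes touched a member: 411 lay wholly inside, 135 crossed 1 border and 12 ran across both. Those across both borders were Macrod2, Dlgap2, Nav2, Cacna1d, Fhod3, Ebf1, Shroom3, Cfap61, Dnah6, Cemip, Ston2 and Col13a1. By Nanopore borders, the LAD was inside the gene in these cases, with the gene's ends on both sides outside it. By Illumina borders the order was reversed for Nav2 (48959063 to 49610090), which lay wholly in a LAD from 48940001 to 49740000. Some gene ends were less than a 20 kb step outside, as for Cemip (83932857 to 84086693) around a LAD from 83940001 to 84080000. Shroom3, an actin-binding gene of epithelial shape (chromosome 5, 92683435 to 92965759), had 63.8% of its length in the LAD. Of 94 genes across 1 border with a known start site, 35 (37.2%, 95% Wilson interval 28.1 to 47.3%) started outside the LAD and 59 inside.

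**Figure D3:**
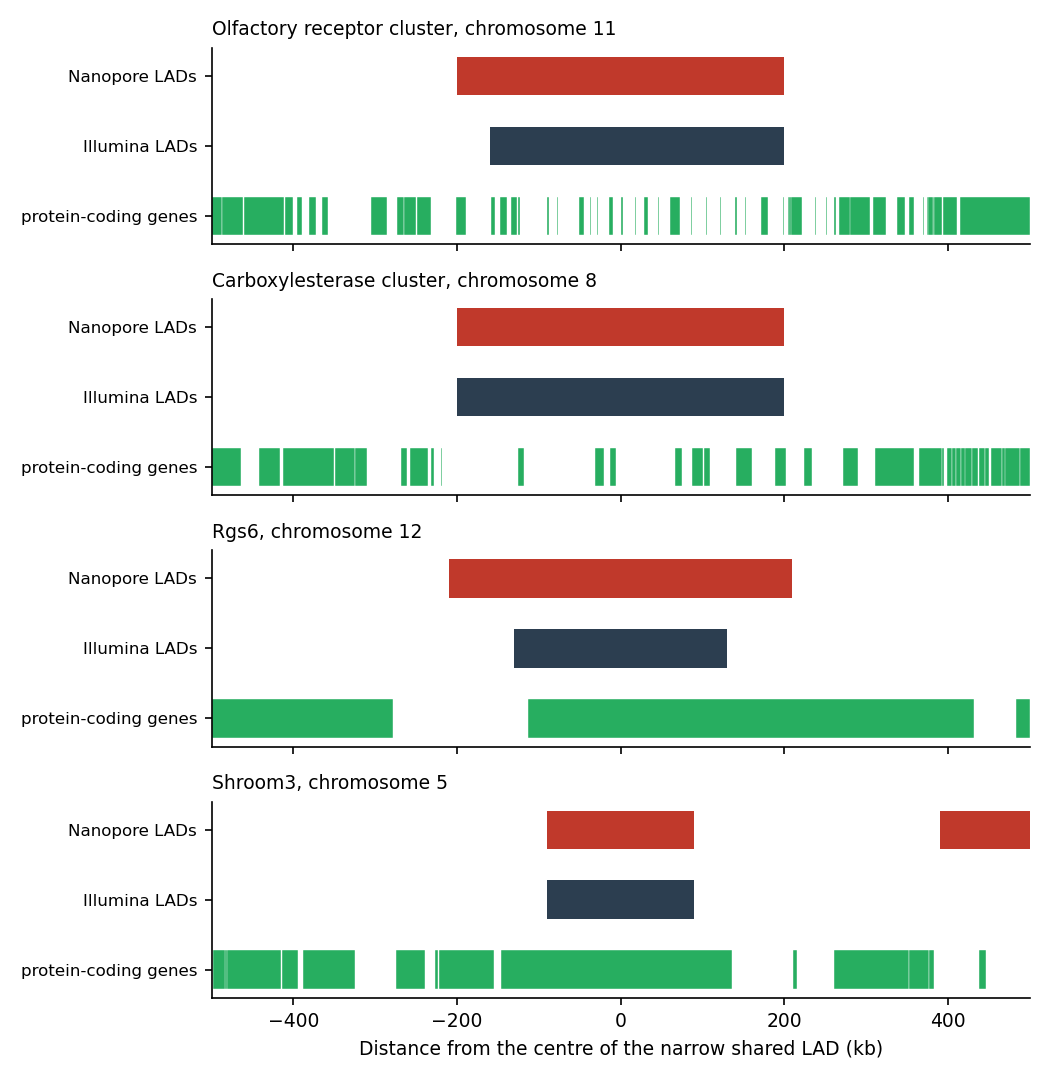
Map of 4 narrow shared LADs with the LADs of both lists and protein-coding genes, by distance from the centre of the LAD (kb); bars span each interval or gene, and overlapping genes are drawn over each other. The Ces2 and Shroom3 LADs have identical borders by both methods, and the Rgs6 LAD is 420 kb by Nanopore and 260 kb by Illumina.

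Averaged over 20 chromosomes, narrow shared LADs held 7.78 ± 4.52 protein-coding genes per Mb (SD over chromosomes). Narrow LADs that failed the Illumina rule held 6.0 ± 2.67, mid-size shared LADs 5.62 ± 2.06 and LADs of 2 Mb or more 3.20 ± 2.52, against 13.9 ± 3.14 outside Nanopore LADs. Density in narrow shared LADs was higher than in LADs of 2 Mb or more on 17 of 20 chromosomes, by 4.58 ± 5.35 genes per Mb, a mean smaller than its spread. Chromosomes 2, 7 and 13 had the opposite order. Against mid-size shared LADs it was higher on 14 of 20 chromosomes (by 2.15 ± 4.20), and against narrow LADs that failed the rule on 11 of 20 (by 1.78 ± 5.37). It was lower than outside LADs on 18 of 20, with chromosomes 11 and 19 as the exceptions, at 22.7 and 16.1 genes per Mb.

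Receptor clusters carried much of that spread. The members held 102 olfactory and vomeronasal receptor genes in 16 LADs. Without these genes the density was 5.87 ± 2.57 per Mb in narrow shared LADs, 4.56 ± 1.34 in mid-size shared LADs and 2.15 ± 0.742 in LADs of 2 Mb or more. Narrow shared LADs were then higher than LADs of 2 Mb or more on 19 of 20 chromosomes, by 3.72 ± 2.86, the exception being chromosome 13. They were lower than sequence outside LADs on 20 of 20, where the density was 13.8 ± 3.03 per Mb. Compared with narrow LADs that failed the rule, at 5.91 ± 2.68 per Mb, the difference was -0.04 ± 4.11. Chromosome 19 fell from 16.1 to 1.69 genes per Mb without its receptor genes and chromosome 11 from 22.7 to 11.8.

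**Figure D4:**
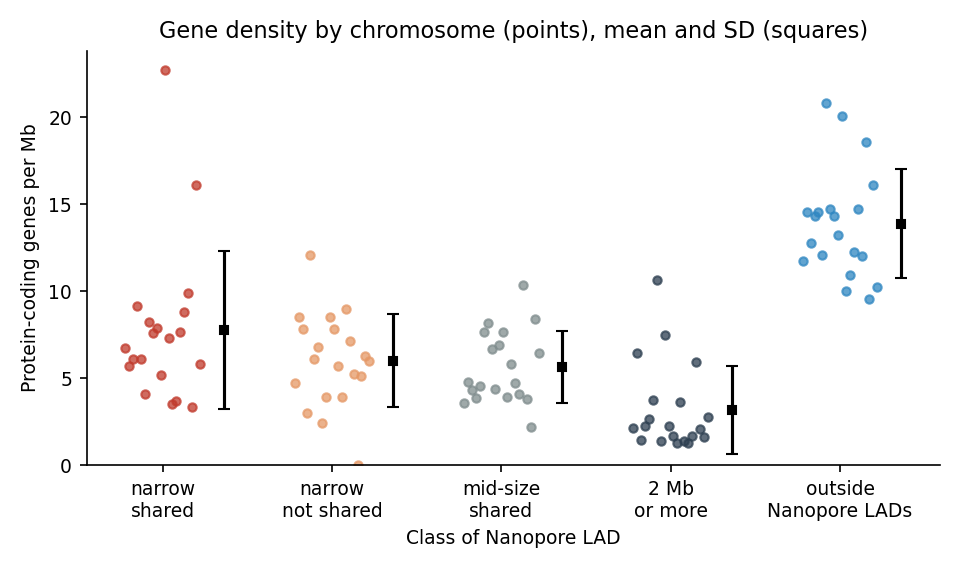
Protein-coding genes per Mb in each class of Nanopore LAD and outside Nanopore LADs; each point is 1 of 20 chromosomes, and squares with bars give mean and SD over chromosomes. Narrow shared LADs average 7.78 per Mb, with the highest point, 22.7, from chromosome 11.

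The next Nanopore LAD was a median of 180 kb away on the nearer side (quartiles 100 and 380 kb) and 680 kb on the farther side (237 members with a LAD on both sides). The nearer distance was 220 kb in narrow LADs that failed the rule, 240 kb in mid-size shared LADs and 200 kb in LADs of 2 Mb or more, so class medians were at most 60 kb, or 3 grid steps, apart. Chromosome medians for members averaged 203.5 ± 87.9 kb (SD over 20 chromosomes), a spread wider than these gaps between classes. At 100 kb or less, 68 members (27.5%) had a close neighbour. The share was 21.9% in narrow LADs that failed the rule, 20.4% in mid-size shared LADs and 18.5% in LADs of 2 Mb or more. The smallest distance was 60 kb, in 16 members. The nearer gaps beside members held 17.8 protein-coding genes per Mb, pooled over gaps, and 29 of 247 (11.7%) held none. With 1 gap taken per LAD, a gap between neighbouring members could count more than once. In narrow LADs that failed the rule, mid-size shared LADs and LADs of 2 Mb or more, the nearer gaps held 12.1, 13.9 and 9.45 genes per Mb. In the same order, 17.2, 10.2 and 13.3% of gaps held none.

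The nearer neighbour was under 500 kb wide for 89 members (36%), 500 kb to 2 Mb for 117 (47.4%) and 2 Mb or more for 41 (16.6%). Among all LADs these widths made up 39.4, 42.7 and 18%. LADs of 2 Mb or more, 18% of all LADs, lay directly on both sides of 7 members (2.83%). Consecutive members formed 36 pairs and 11 longer runs, 108 members in all, and 139 members stood alone. Members were 21.0% of all Nanopore LADs, and no expected number of runs was computed. The longest run, 5 members over 1920 kb of chromosome X (30860001 to 32780000), held 12 genes, with Btbd35f and Spin2 family genes. A run of 4 on chromosome 18 (9460001 to 12640000) held Colec12, Cetn1, Greb1l and Gata6, a transcription factor gene of endoderm and heart. On chromosome 16 (44500001 to 45560000) a run of 3 held Boc, a Hedgehog co-receptor gene, and Cd200 with 4 Cd200r genes, which encode an immune ligand and members of its receptor family.

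**Figure D5:**
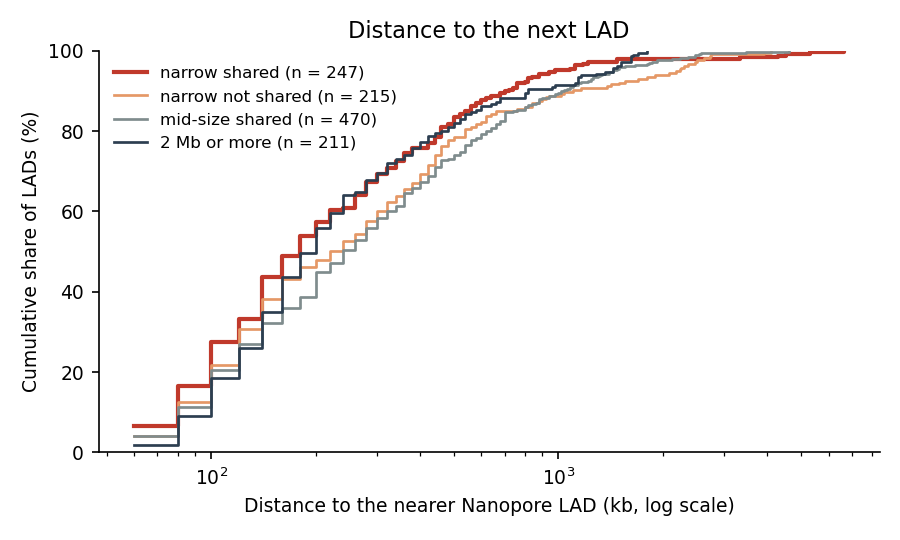
Cumulative share of LADs (%) by distance to the nearer Nanopore LAD (kb, log scale), with 1 line per class of Nanopore LAD. The line for 247 narrow shared LADs starts at 60 kb, crosses its median at 180 kb and runs out to 6660 kb.

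Isolated members formed a small tail: 12 (4.86%) had their nearer neighbour at 1 Mb or more. The share was 11.2% in narrow LADs that failed the rule, 10.9% in mid-size shared LADs and 8.53% in LADs of 2 Mb or more. The most distant member, on chromosome 11 (121720001 to 122000000), was the last LAD of its chromosome, held Ptchd3, and lay 6660 kb from the one before it. Its Illumina cover was at the limit of 50%. Next came 340 kb of chromosome 17 (30700001 to 31040000), 5320 kb from a neighbour, with the axonemal dynein gene Dnah8, Umodl1 and Glp1r, the receptor gene of the incretin GLP-1. The LAD in Rgs6 on chromosome 12 (82520001 to 82940000) was 4540 kb away. A LAD on chromosome 15 (82440001 to 82720000), at 4300 kb, held Cyp2d34, Cyp2d9 and Cyp2d12, drug-metabolising enzymes of the liver, in flanks of 25.5 genes per Mb. Efcab3 and Efcab13 on chromosome 11 followed at 3340 kb.

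The other 5 of the 10 most isolated members were narrow LADs with 1 gene each. Col13a1, a transmembrane collagen gene on chromosome 10, and Vmn2r129, a vomeronasal receptor gene near the end of chromosome 4, both lay 1480 kb from the next LAD. Skor2, a transcriptional corepressor gene on chromosome 18, was 1220 kb away, Serpine2 on chromosome 1 1180 kb and Dock3 on chromosome 9 1120 kb, tied with a LAD on chromosome 14 that held Frmpd2 and Ptpn20. Surroundings of these 10 LADs ranged from 4.0 genes per Mb at Serpine2 to 43.0 at Vmn2r129, so isolation went with sparse as well as dense flanks. The 10 were picked for their distance to the next LAD, so by selection none had another Nanopore LAD base within 1 Mb. Illumina overlap was likewise set by the rule, and the Illumina LADs they met were 60 to 400 kb wide.

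Local gene density, in the 1 Mb on each side without the LAD itself, had a median of 8.5 protein-coding genes per Mb around members (quartiles 6.0 and 14.2, range 0.5 to 47.0). It was 8.5 around mid-size shared LADs and around narrow LADs that failed the rule, and 7.0 around LADs of 2 Mb or more. Chromosome medians around members averaged 10.9 ± 5.82 per Mb, highest on chromosome 19 (31.0) and lowest on chromosome X (5.5). A median of 44.0% of these flanks was itself Nanopore LAD, against 42.0% around LADs of 2 Mb or more, 36% around narrow LADs that failed the rule and 34.0% around mid-size shared LADs. Density inside was below the flanks in 165 members, above in 80 (32.4%) and equal in 2. Inside exceeded the flanks in 23.7% of narrow LADs that failed the rule, 16% of mid-size shared LADs and 8.53% of LADs of 2 Mb or more. In a LAD this narrow 1 gene more or less moves the density inside by several genes per Mb, so this comparison is coarse.

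Members were spread unevenly over chromosomes. Chromosome 7 had 28 (19.7 per 100 Mb of span) and they were 32.9% of its LADs, and chromosome 1 had 24 (12.5 per 100 Mb). Chromosome 6 had the fewest per length, 7 members or 4.78 per 100 Mb. Chromosome 19 had 4 and chromosome X 13. On chromosome 7 the members held 54 genes, of which 33 were not receptor genes, in flanks with a median of 16.5 genes per Mb.

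Sensory receptors led the 31 gene lists in number. Of 1105 olfactory receptor genes, which encode odorant receptors, 86 (7.78%) were in 10 members, such as Olfr10, Olfr11, Olfr1328 and Olfr1329. Of 350 vomeronasal receptor genes, 16 (4.57%) were in 6 members, among them Vmn1r157 to Vmn1r160 side by side in 140 kb of chromosome 7. Over all protein-coding genes the share was 2.37%. Since most receptor genes are in LADs of any width, the share among LAD genes is closer: 8.32% of olfactory receptor genes in Nanopore LADs lay in members, 5.30% of vomeronasal receptor genes and 8.20% of all protein-coding genes in Nanopore LADs. Most genes of some other clustered families lay in wider or unshared LADs, and none in a narrow shared one. These were bitter taste receptors (33 of 35 genes in Nanopore LADs), defensins (55 of 71), keratins (35 of 53), keratin-associated genes (47 of 56), Serpina and Serpinb genes (44 of 52), and Clec and Klr lectin and killer receptor genes (50 of 60). The 6 Cd209 genes named above also encode C-type lectins but were not on that list. Over all protein-coding genes, 6223 of 21519 were in Nanopore LADs. At the share of 2.37% inside members, lists of 35 to 71 genes would hold few genes or none, and these zeros were not tested.

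Of 40 sodium and calcium channel genes 4 (10.0%) were inside, in 3 LADs, beside a share of 2.37% over all protein-coding genes. Scn10a and Scn11a, sodium channels of sensory neurons, shared a 280 kb LAD on chromosome 9 (119600001 to 119880000), Cacnb4, a calcium channel subunit gene, was in a LAD of 3 genes on chromosome 2, and Cacna1d held its 80 kb LAD within the gene. Of 93 potassium channel genes 2 (2.15%) were inside, Kcnd3 and Kcnq1. Grin3a was the 1 of 26 glutamate receptor genes, with 0 of 19 GABA-A receptor genes. Of 88 neural adhesion genes 65 were in Nanopore LADs and none in a narrow shared one. Of 378 solute carrier genes 3 (0.794%) were inside, Slc24a4, Slc5a9 and Slc7a2. At the share of 2.37%, lists of 19 to 93 genes would hold few genes or none, and none of these lists was tested.

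Of 140 homeobox and other lineage factors 4 (2.86%) were inside, near the share of 2.37% over all protein-coding genes. These were Foxb1, Foxl2, Gata6 and Msx2. Foxb1 and Msx2 were the only genes of 440 and 200 kb LADs on chromosomes 9 and 13. Foxl2, a factor of ovary and eyelid, was at the end of a 340 kb LAD (98620001 to 98960000) with the gene at 98955607 to 98958126. Sox21 was the 1 of 19 Sox genes and Bmp7 the 1 of 83 developmental signals. Of 24 neuroblast lineage genes, which mark the origin of N2A cells, none was inside, and the same held for 18 lamina and DNA methylation genes, 98 ribosomal protein genes, 18 housekeeping genes and 20 blood and immune genes. At the share of 2.37% over all genes, lists of this length would hold few genes or none, so these counts do not set the lists apart.

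Imprinted genes, expressed from 1 parental copy, had 4 of 24 members inside (16.7%), in 3 LADs that were all on chromosome 7. Peg3 and Zim1 (6703892 to 6730462 and 6674444 to 6696540) shared their LAD with Usp29 and 7 olfactory receptor genes. Ndn was the only gene of a 260 kb LAD (62100001 to 62360000), and Kcnq1 had 83.4% of its length in a LAD of 280 kb (143160001 to 143440000). The share over all genes was 2.37%, and with 4 genes in 3 LADs no test of the list was made. The clustered genes of the other lists were Il19, Il20 and Il24, cytokine genes of the IL-10 family in 1 LAD of chromosome 1, the 3 Cyp2d genes, Adam20, Adam24, Adam25 and Adam39, protease family genes of the testis in 1 LAD of chromosome 8 (40600001 to 40920000) that also held Slc7a2, and Zfp108, Zfp109, Zfp111 and Zfp114 in 100 kb of chromosome 7 (24160001 to 24260000). Of 394 Zfp zinc finger genes 12 (3.05%) were inside, in 8 LADs. Neb, the gene of the muscle ruler protein nebulin, and Pck1, an enzyme gene of gluconeogenesis, stood for the muscle (1 of 20) and the liver and intestine list (1 of 23).

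Borders of members had the nearest protein-coding start site at a median of 49.8 kb on either side (472 borders on 19 chromosomes). Within 50 kb outside the borders, 161 of 255 start sites (63.1%, 95% Wilson interval 57.1 to 68.8%) pointed away from the LAD and 94 towards it. The share pointing away was 61.8% (55.1 to 68.1%) at LADs of 2 Mb or more, 57.5% (53.3 to 61.6%) at mid-size shared LADs and 55.8% (49 to 62.4%) at narrow LADs that failed the rule, with intervals that overlap. Start sites of 1 gene pair can share a promoter region, so they are not independent.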

How the data were processed

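Per the labels' protocols, Dam fusions were induced with doxycycline at 2 µg/mL, and for Nanopore libraries DNA was cut at methylated GATC with DpnI; Illumina libraries followed a published DamID protocol. Tools named per the submitters' processing notes are bedtools, deepTools, minimap2 and SAMtools, with the builds hg38 and mm10 and no roles. No source used here gives the LAD caller, its thresholds or the pooling of samples. The authors deposited interval coordinates (other values, no count or score), 1210 Nanopore and 1190 Illumina intervals, of which 1174 and 1149 lay on chromosomes 1 to 19 and X. Depth and its precision are unknown. The CTCF list was not used.

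Genes came from RefSeq GRCm38.p6 (49997 rows), after 340 listed below 3 Mb were left out, and were placed by midpoint. Start sites came from a promoter table (first entry per gene), without chromosome 18. Density was averaged over chromosomes. A LAD distance is the gap to the next interval. No significance test was run. Named genes are at most the 3 longest named ones of the 10 members with most genes and of the 10 farthest from the next LAD (ties in chromosome order), the 10 longest inside, the 10 longest across both borders, and list members inside (all where 8 or fewer, otherwise the first 4 by alphabet); genes given for runs, identical borders, one-gene LADs and CpG ratios beyond the 63 candidates were chosen after their values were seen, as were the 2 shortest genes across both borders and the Vmn1r, Cd209, Cd200r and Cd300 families. Results of 2 lists are not reported here. Members, lists and rules were chosen with earlier results of these data known. Alternatives changed the shared fraction, width limits, chromosomes, gene placement and flank. Functions were tested on simulated lists. Computation used pandas 2.3.3 and numpy 2.4.6 under Python 3.11.15, with scipy 1.17.1 for intervals and matplotlib 3.10.9 for plots.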

Additional observations from a re-analysis of the deposited data

How the results depend on the processing

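A limit of 300 kb left 143 members. The share of members without a protein-coding gene was 45.7% when a gene had to lie wholly inside, 16.2% with any overlap and 26.7% without genes of Gm, Rik and like symbols, against 21.1%. The distance to the next LAD was 680 kb on the farther side, a different quantity by construction. All other alternatives stayed within 1 SD over chromosomes, the 95% interval or 1.5 times the count: mean density from 5.87 to 8.46 genes per Mb, the lowest without receptor genes (chosen after seeing the data), and flank density from 7.5 to 10.0. Merging LADs at most 40 kb apart changed nothing, as the smallest gap beside members was 60 kb. In the bases that members share with Illumina LADs, pooled density was 7.63 per Mb, against 7.55 over whole members. Narrow LADs rest on few 20 kb steps, and without depth no error could be put on a border. No paired analysis was possible because the lists hold no values per sample.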

Other observations

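Gene types other than protein-coding genes were also counted by midpoint. Narrow shared LADs held 380 pseudogenes, 5.62 per Mb, against 3.51 per Mb in LADs of 2 Mb or more, 4.41 in mid-size shared LADs and 3.63 outside Nanopore LADs. Long noncoding RNA genes stood at 5.42 per Mb (366 genes), between 2.05 per Mb in LADs of 2 Mb or more and 7.33 outside. Narrow LADs that failed the Illumina rule held 3.55 pseudogenes and 5.65 long noncoding RNA genes per Mb, the latter near the value in members. MicroRNA genes were sparse, with 12 of 1228. Pseudogenes of receptor clusters sit beside their parent genes, and these densities are pooled over chromosomes with no error.

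The 52 members without a protein-coding midpoint had a median width of 210 kb, against 280 kb for the rest, and flanks of 7.0 genes per Mb, against 9.0. Of these, 34 held a long noncoding RNA gene, 31 a pseudogene and 6 no annotated gene midpoint at all, and 12 were touched by a protein-coding gene whose midpoint lay elsewhere, as was the case for Ebf1, a B cell and neuronal transcription factor gene, at 140 kb of chromosome 11.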
